A study of Mus musculus with 8 samples.

Results

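The striated muscle miRNAs described here are 5 mature miRNAs that mark striated muscle, mmu-miR-1a-3p, mmu-miR-133a-3p, mmu-miR-133b-3p, mmu-miR-133a-5p and mmu-miR-206-3p. They were chosen by name from the 1881 mouse miRNAs on the array and are written below without the species prefix. Skin came from male mice, all Ncstn flx/flx with Krt14 CreER+/-, so every animal had floxed alleles of the nicastrin gene and a tamoxifen-dependent Cre under a promoter of basal keratinocytes. Nicastrin belongs to γ-secretase, the membrane protease that releases the Notch intracellular domain. In NcstnΔKC mice (4 samples) tamoxifen was gavaged at 20 mg per kg per day, starting at 8 weeks of age, for 5 days in a row and again at intervals of 10 days. Normal mice (4 samples) had the same genotype and got corn oil instead, which means that drug and deletion cannot be told apart in this comparison. All skin was taken at an age of 16 weeks; its body site and the depth of excision are not given in the sources used here. One 1-colour array was run per sample. Whether samples of 1 group are different animals is not stated, and p-values then describe only how these samples vary, possibly for technical reasons. Arrays are called NcstnΔKC 1 to 4 and normal 1 to 4 after the replicate numbers in the labels.

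As background, these miRNAs are known as myomiRs because striated muscle makes them at high level and most other tissues make little. miR-1 promotes muscle differentiation, miR-133 is linked to myoblast proliferation, and miR-206 is found in skeletal muscle, where in mice it takes part in regeneration and in repair of the neuromuscular junction. Mouse skin lies on the panniculus carnosus, a thin sheet of striated muscle under the dermis and its fat, which human skin largely lacks. A piece of excised skin can therefore carry more or less muscle. In such bulk RNA, fewer muscle cells and less miRNA per muscle cell cannot be told apart.

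Both members encoded on mouse chromosome 1 are shown, 1 of the miR-1 and miR-206 family and 1 of the miR-133 family, since they differ in seed. The seed, bases 2 to 8 of the mature miRNA that pair with targets, is in capitals. Sequences are from RefSeq (GRCm38.p6), in which 2 of the 5 members were matched.
miR-206-3p: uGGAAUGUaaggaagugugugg
miR-133b-3p: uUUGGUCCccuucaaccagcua
The longer of the 2 array probes for miR-1a-3p also covers the seed of miR-206-3p, so miR-1a-3p and miR-206-3p share it. The probes of miR-133a-3p and miR-133b-3p that are 18 bases long differ at 1 base, so how much of their signal each miRNA holds is uncertain.

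The partner arms of the same hairpins are shown because they were on the array too and were detected on 0 of the 8 arrays.
miR-206-5p: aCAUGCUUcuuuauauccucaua
miR-133b-5p: gCUGGUCAaacggaaccaaguc
The hairpins of miR-206 (chromosome 1, 20679010 to 20679082, GRCm38.p6) and miR-133b (chromosome 1, 20682769 to 20682887) lie 3686 bases apart, both within the span of the long noncoding RNA gene Lincmd1. One copy of the miR-1a hairpin, Mir1a-1 (chromosome 2, 180389048 to 180389124), and one of the miR-133a hairpin, Mir133a-2 (chromosome 2, 180398379 to 180398482), lie 9254 bases apart within the span of Mir1a-1hg. The probes of miR-1a-3p, miR-133a-3p and miR-133a-5p match a second locus each, so the arrays do not tell the 2 copies apart.

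The probe sequences of the chromosome 1 members are shown because they set what the array reads, with all of their bases in capitals since every base pairs with the mature miRNA.
miR-206-3p probe: CCACACACTTCCTTA
miR-206-3p probe: CCACACACTTCCTTAC
miR-133b-3p probe: TAGCTGGTTGAAGGGGAC
miR-133b-3p probe: TAGCTGGTTGAAGGGGACC
The array files place their targets, in mm9, on chromosome 1 at 20669144 to 20669157 and 20669143 to 20669157 for miR-206-3p, and 20672920 to 20672936 and 20672919 to 20672936 for miR-133b-3p. They start at base 8 or base 7 of miR-206-3p and at base 5 or base 4 of miR-133b-3p and run to the last base of each. The spans in the files are 1 base shorter than the probes, so 1 end of each is uncertain by 1 base.

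The NcstnΔKC arrays detected 198 to 238 miRNAs each and the normal arrays 235 to 273. The intensity used for scaling, each array's 75th percentile over the probes detected on all 8 arrays, ran from 922 to 1160 on NcstnΔKC arrays and from 1215 to 1314 on normal arrays. All 8 arrays lie on 1 slide, the NcstnΔKC arrays in its row 1 and the normal arrays in its row 2, and row and group cannot be told apart. Keratinocyte miRNAs were present throughout, and all 8 of that list were tested. Of these 5 were called lower and 0 higher, against 27.9% and 14.9% of all 222 tested miRNAs. Their summed scaled level was 22.9 to 30.5 in NcstnΔKC skin and 22.8 to 27.7 in normal skin. That sum joins members that differed in both directions, such as miR-205-5p by 0.47 (limma, adjusted p = 0.0518) and miR-203-3p by -0.68 (0.0139). Levels below are log2 of the intensity relative to the scaling percentile, summed over the probes of a miRNA; since probes differ in brightness, levels of different miRNAs are not ranked against each other.

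The muscle miRNAs were lower on average in NcstnΔKC skin, but the arrays of each group were spread so widely that the groups overlapped for all 5. They held 1.33% to 8.33% of the summed miRNA signal on NcstnΔKC arrays, 3.83 ± 3.09% on average, and 4.19% to 16.6% on normal arrays, 11.2 ± 5.32% (mean ± SD, n = 4 each). By array the share was 8.33%, 1.33%, 2.82% and 2.81% in NcstnΔKC 1 to 4 and 4.19%, 10.4%, 16.6% and 13.8% in normal 1 to 4. NcstnΔKC 1 thus lay above normal 1, while the other 3 NcstnΔKC arrays lay below every normal array.

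miR-1a-3p, the muscle differentiation miRNA, had levels of 4.09, 1.43, 2.50 and 2.53 in NcstnΔKC 1 to 4, against 3.02, 4.59, 5.25 and 5.01 in normal 1 to 4. NcstnΔKC 1 exceeded normal 1, and the other NcstnΔKC arrays were lower than all normal arrays. Its mean was 2.64 ± 1.096 in NcstnΔKC skin and 4.47 ± 0.999 in normal skin (SD, n = 4 each), a log2 difference of -1.83 ± 0.63 (SE), or 3.56-fold lower (limma, adjusted p = 0.0451, 95% interval -3.28 to -0.38; adjusted p = 0.132 with the slide column as a block). The 4 NcstnΔKC arrays alone spanned 6.33-fold and the normal arrays 4.66-fold, both more than the difference between the group means. An exact two-sided permutation of the 8 arrays gave p = 0.0571 for this miRNA, where 0.0286 is the smallest they can give.

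miR-133a-3p, which shares its transcripts with miR-1a, had levels of 2.85, 0.22, 1.24 and 1.25 in NcstnΔKC 1 to 4, against 1.72, 3.24, 3.89 and 3.62 in normal 1 to 4. Its arrays stood in the same order as those of miR-1a-3p. The log2 difference was -1.73 ± 0.62 (limma, adjusted p = 0.0518, 95% interval -3.15 to -0.30), on the other side of the threshold. miR-133b-3p, its near copy from the miR-206 locus, had levels of 3.65, 1.06, 2.02 and 2.05 in NcstnΔKC skin, against 2.49, 3.99, 4.70 and 4.37 in normal skin. Here too NcstnΔKC 1 stood above normal 1. Its log2 difference was -1.69 ± 0.62 (adjusted p = 0.0557).

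miR-133a-5p, the arm opposite miR-133a-3p, was dim. It was detected on 3 NcstnΔKC arrays and 4 normal arrays, with levels of -1.93, -4.97, -3.52 and -3.33 in NcstnΔKC 1 to 4, against -3.05, -1.42, -0.79 and -1.12 in normal 1 to 4. A miRNA was tested if detected on all 4 arrays of a group, and miR-133a-5p met this only through normal skin, where it was higher. The value of NcstnΔKC 2 is the floor set for values below detection. The difference was -1.84 ± 0.68 (limma, adjusted p = 0.0575) with that array at the floor. It was -0.78 with normexp (limma, adjusted p = 0.0919), -1.08 with the scanner software's totals (0.662) and -1.004 with the percentile over all probes (0.411). One of its 2 probes reached detection on 4 of the 8 arrays and the other on 7.

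miR-206-3p, the skeletal muscle member, followed a looser pattern. Its levels were 0.62, -1.10, -0.28 and -0.40 in NcstnΔKC 1 to 4, against -1.16, 0.24, 2.44 and 1.43 in normal 1 to 4. Normal 1 was the lowest of all 8 arrays, and normal 2 lay below NcstnΔKC 1 as well. The normal arrays spanned 12.1-fold, and the NcstnΔKC arrays 3.31-fold. The log2 difference was -1.03 ± 0.73 (limma, adjusted p = 0.283, 95% interval -2.69 to 0.63), an interval that holds both no difference and a fall larger than that measured for the other 4.

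**Figure D1:**
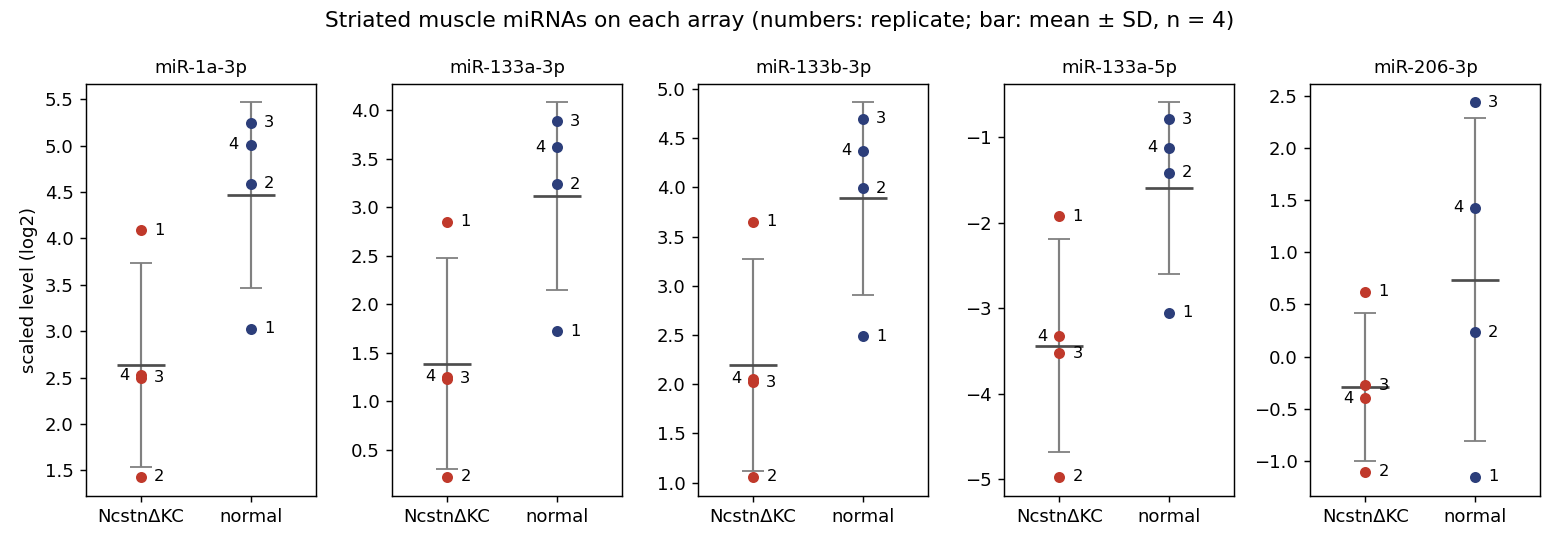
Scaled log2 level of each muscle miRNA on each array (points, numbered by replicate), with NcstnΔKC left of normal and the mean ± SD (n = 4) as lines; each panel has its own axis. NcstnΔKC 1 lies above normal 1 in every panel, and the miR-1a-3p points run from 1.43 to 4.09 in NcstnΔKC skin and from 3.02 to 5.25 in normal skin.

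In all, 1 of the 5 muscle miRNAs passed an adjusted p of 0.05 as lower and 4 did not pass. Over all 222 tested miRNAs 27.9% were called lower (62), 14.9% higher (33) and 42.8% either way, so the members' share is near the background. That split depends on the scaling: it was 0 lower and 12 higher with the percentile over all probes, 30 and 35 with quantile, and 101 and 24 without scaling. It also depends on the filter, with 34 lower and 27 higher among the 174 miRNAs detected on all 8 arrays. The groups overlapped in all 5 members, whereas 36.9% of all tested miRNAs had groups that did not overlap. The median log2 difference was -1.73 over the 5 members and -0.23 over all tested miRNAs, so the members had large differences that few calls accompanied. Their SD within groups was 1.03 to 1.21 on the log2 scale, against a median of 0.31 over all tested miRNAs. In the order of that SD from widest to narrowest the members took places 5, 11, 14, 16 and 17 of 222.

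**Figure D2:**
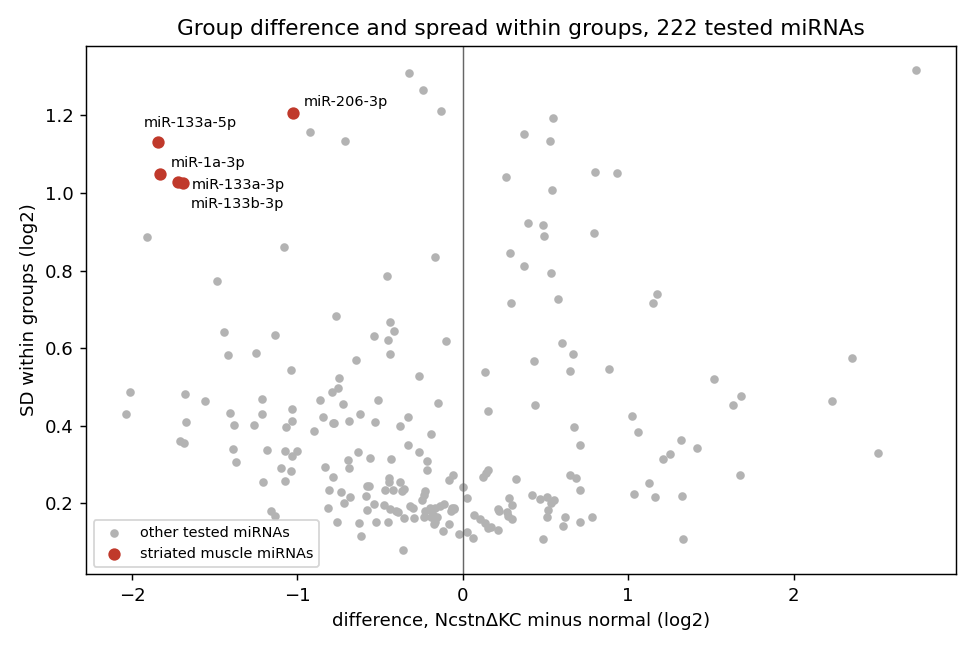
Log2 difference of NcstnΔKC minus normal (x axis) against the SD within groups (y axis, log2) for the 222 tested miRNAs, with the 5 muscle miRNAs in red. The muscle miRNAs combine differences of -1.84 to -1.03 with SDs of 1.03 to 1.21, far above the median SD of 0.31.

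Leaving out any single array changed the count of 1. Without NcstnΔKC 1 miR-1a-3p, miR-133a-3p, miR-133b-3p and miR-133a-5p were all called lower (4 of 5), with miR-1a-3p at -2.32 (limma, adjusted p = 0.0143), and without normal 1 the same count of 4 was reached, with miR-1a-3p at -2.31 (adjusted p = 0.0168). Without any one of the other 6 arrays (NcstnΔKC 2, 3 or 4 or normal 2, 3 or 4) the count was 0, and the adjusted p of miR-1a-3p lay between 0.0865 and 0.112. The replicate number is also the array's column on the slide, per the file headers, so each column holds 1 array of each group. With the column as a block in the fit 0 members were called, and miR-1a-3p was at -1.83 with an adjusted p of 0.132 (limma). In column 1 the difference of NcstnΔKC minus normal was 1.07 for miR-1a-3p and 1.78 for miR-206-3p. In columns 2, 3 and 4 it was -3.16, -2.75 and -2.49 for miR-1a-3p and -1.34, -2.72 and -1.83 for miR-206-3p. Within column 1 all 5 members were thus higher in NcstnΔKC skin, by 2.09- to 3.42-fold, and within the other 3 columns all 5 were lower.

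All 5 differences were negative under each scaling tried (the percentile over all probes or without the members' own probes, quantile, cyclic loess, none, spike-ins), while the calls moved. With the percentile taken over all probes, a scaling that moved the median of all tested miRNAs to 0.64, miR-1a-3p differed by -0.96 (limma, adjusted p = 0.439) and miR-206-3p by -0.16 (0.900). Without scaling and with spike-in scaling 4 members were called, with miR-1a-3p at -2.09 (adjusted p = 0.0304) and -2.14 (0.0283). In the authors' series matrix values miR-1a-3p differed by -1.80 (0.0571) and no member was called.

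**Figure D3:**
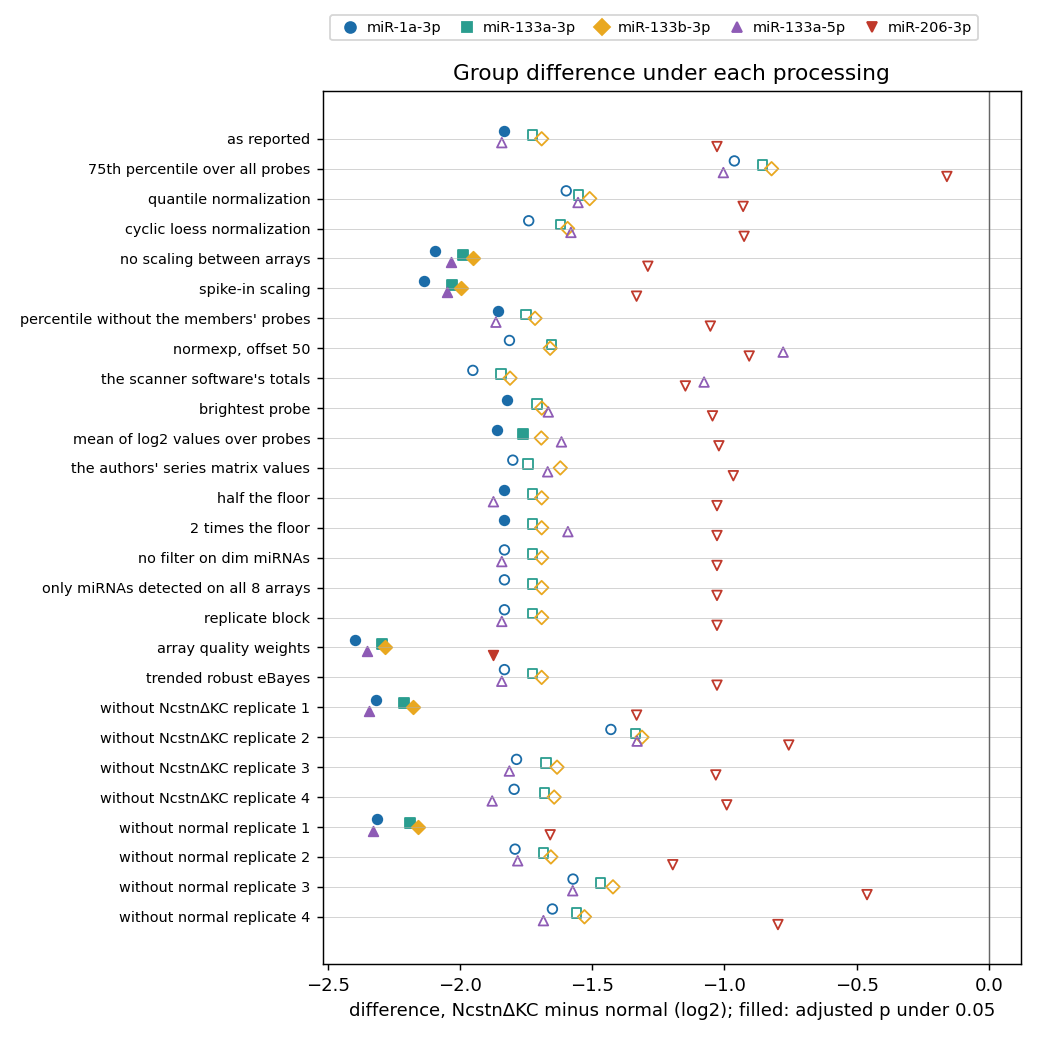
Log2 difference of NcstnΔKC minus normal for each muscle miRNA (symbols) under each way of processing (rows); filled symbols passed an adjusted p of 0.05. Every symbol lies left of 0, the calls come and go, and miR-206-3p lies nearest to 0 in every row except normexp and the scanner software's totals, where miR-133a-5p does.

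miR-1a-3p and the 3 miR-133 members moved together from array to array. After the group means were taken out, the deviations of miR-1a-3p correlated with those of miR-133a-3p (r = 0.9997), miR-133b-3p (0.999) and miR-133a-5p (0.991) over the 8 arrays, and with those of miR-206-3p at 0.882. miR-133b-3p is encoded beside miR-206, yet its deviations correlated with those of miR-206-3p at 0.886 and with those of miR-133a-3p, whose probes nearly match its own, at 0.9997. These values describe 8 arrays that share a slide and a scaling, and each value is scaled by the same number on both sides. Spots of 1 probe differed by little, with coefficients of variation of 1.56% to 10.6% on each array over the 8 probes of the 4 brighter members. Both probes of each of those 4 members gave differences close to each other, -1.89 and -1.82 for miR-1a-3p, -1.82 and -1.71 for miR-133a-3p, -1.69 and -1.69 for miR-133b-3p, and -0.997 and -1.04 for miR-206-3p.

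In a ratio between members of the same array, a factor common to the array cancels. The log2 ratio of miR-206-3p over miR-1a-3p was -3.47, -2.53, -2.78 and -2.93 in NcstnΔKC 1 to 4, against -4.18, -4.35, -2.81 and -3.58 in normal 1 to 4. It was higher by 0.80 in NcstnΔKC skin on average, with overlapping groups (exact two-sided permutation p = 0.114, adjusted p = 0.152 over 4 ratios). Normal 3 and normal 2 lay furthest apart, so the balance of the 2 miRNAs varied within normal skin by more than between the group means. The ratio of miR-133a-3p over miR-1a-3p was nearly constant, at -1.24, -1.21, -1.26 and -1.27 in NcstnΔKC skin, against -1.30, -1.35, -1.36 and -1.39 in normal skin. All 4 NcstnΔKC ratios were above all 4 normal ones, by 0.11 on average (exact permutation p = 0.0286, the smallest possible, adjusted p = 0.114), a difference that did not pass. miR-133b-3p over miR-133a-3p differed by 0.03 (exact permutation adjusted p = 0.152; -0.0047 with normexp), and miR-133a-5p over miR-133a-3p by -0.12 (exact permutation adjusted p = 0.543), a sign that turned under normexp, the scanner software's totals, the series matrix, the brightest probe and without NcstnΔKC 2.

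Related muscle miRNAs split by kind. All 7 partner arms and relatives on the array, miR-1a-1-5p, miR-1a-2-5p, miR-1b-3p, miR-1b-5p, miR-133b-5p, miR-133c and miR-206-5p, were detected on no array. So were the 6 miRNAs hosted by myosin genes of heart and slow fibres (both arms of miR-208a, miR-208b and miR-499), which were not well above background anywhere. Of 23 miRNAs that muscle shares with other tissues, 22 were on the array and 13 were tested. Of the 13, 2 were called lower and 2 higher, while the rest did not pass. Among all 222 tested miRNAs the shares were 27.9% lower and 14.9% higher, so these counts do not set the list apart. The median log2 difference of the 13 was -0.30, against -0.23 over all tested miRNAs. The lower ones were miR-486a-5p, which lies within the ankyrin gene Ank1 and is abundant in muscle and in red blood cells (-1.91 ± 0.54, limma, adjusted p = 0.0229), and miR-128-3p, of brain and muscle (-0.90 ± 0.26, 0.0236). Both lower ones were detected on 1 NcstnΔKC array and 4 normal arrays, so they were tested only through normal skin. The higher ones were miR-214-3p, abundant in fibroblasts (1.21 ± 0.22, limma, adjusted p = 0.00404), and miR-29b-3p, a repressor of collagen genes (0.55 ± 0.17, 0.0291). miR-378a-3p, hosted by Ppargc1b and present in muscle and fat, differed by -0.69 ± 0.27 (0.0659), and the broadly expressed miR-22-3p by -0.19 ± 0.16 (0.346).

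The muscle miRNAs give a level for each array against which other miRNAs can be set. The mean log2 level of the 5 was 1.86, -0.67, 0.39 and 0.42 in NcstnΔKC 1 to 4, against 0.61, 2.13, 3.09 and 2.66 in normal 1 to 4. From high to low the arrays ran normal 3, normal 4, normal 2, NcstnΔKC 1, normal 1, NcstnΔKC 4, NcstnΔKC 3 and NcstnΔKC 2, and NcstnΔKC 4 and 3 hardly differed. Likeness to this level was measured as the correlation of deviations from the group means over the 8 arrays, as a description with no test. Over the 217 tested miRNAs outside the set the median r was -0.006, 17 had r above 0.8 and 5 had r below -0.8. The 13 tested miRNAs that muscle shares with other tissues had a median r of 0.747. They ran from 0.950 (miR-128-3p) to -0.547 (miR-181a-5p).

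The miRNA most like the muscle level was miR-30a-3p (r = 0.976, Spearman's rho 1, r = 0.996 without NcstnΔKC 2 and normal 3, the arrays furthest from the median level). Its levels were -3.49, -4.32, -4.14 and -4.12 in NcstnΔKC 1 to 4, against -3.46, -2.86, -2.33 and -2.56 in normal 1 to 4. The arrays of each group thus stood in the same order as for the muscle level, and NcstnΔKC 1 and normal 1 lay close together. As miR-30a-3p was detected on 1 NcstnΔKC array, the order within NcstnΔKC skin and the rho rest partly on values below detection. Next came miR-128-3p (r = 0.950), miR-486a-5p (0.942), miR-30e-5p (0.915), a relative of miR-30a, and miR-322-5p (0.911), which in mouse myoblasts promotes exit from the cell cycle.

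These neighbours differed in how far they differed between the groups. miR-30a-3p was lower by -1.22 ± 0.28 (limma, adjusted p = 0.00994), whereas miR-30e-5p differed by -0.12 ± 0.13 (0.481) and miR-322-5p by -0.33 ± 0.27 (0.347). miR-30a-3p, miR-128-3p and miR-486a-5p were each detected on 1 NcstnΔKC array and 4 normal arrays. They were thus tested only through normal skin, where they were higher, and their calls depend on that filter. Their lowest values are near background, and 2 values of miR-486a-5p were at the floor. Of the 17 miRNAs with r above 0.8, 17 had negative differences, 10 were called lower and 0 higher. Their median difference was -0.90, against -0.23 over all 222 tested miRNAs, of which 27.9% were called lower and 14.9% higher. The 17 were picked by their deviations within groups, and the levels rest on the same 8 arrays. The lower calls among them include miR-30a-3p, miR-128-3p and miR-486a-5p, tested only through normal skin, so that count depends in part on the filter. At the other end stood miR-7686-5p (r = -0.866) and miR-7047-5p (-0.866), of little known function, and the broadly expressed miR-16-5p (-0.832).

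**Figure D4:**
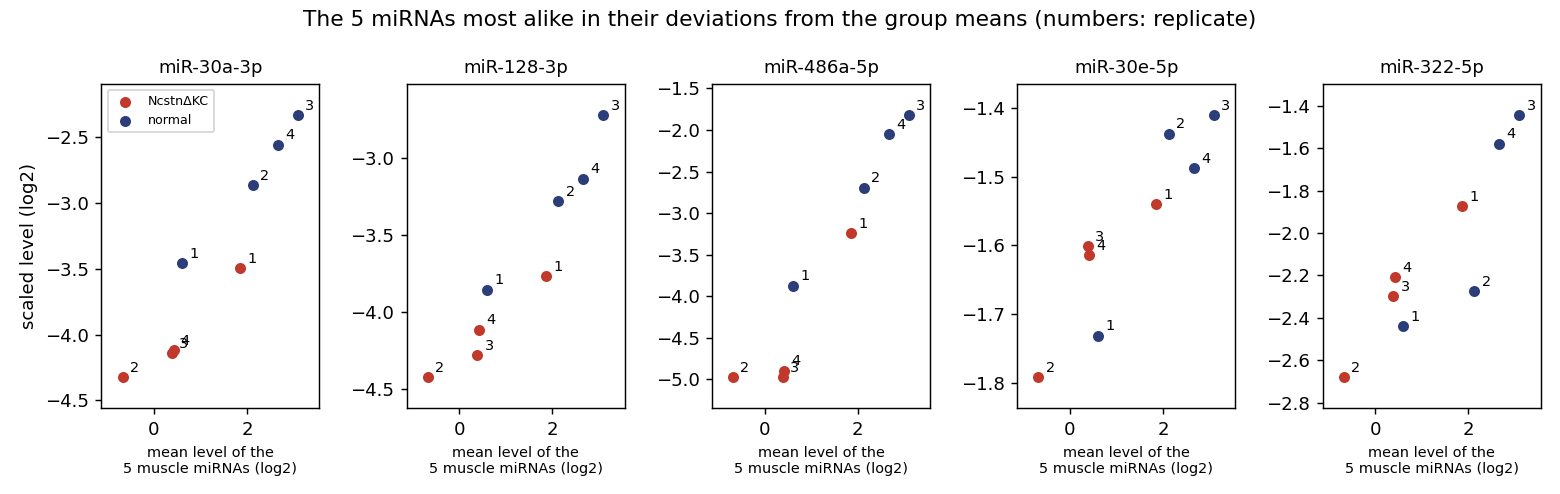
Scaled log2 level of the 5 miRNAs most like the muscle level (y axes) against the mean log2 level of the 5 muscle miRNAs (x axes), 1 point per array, numbered by replicate. In the panel of miR-30a-3p both groups climb with the muscle level, NcstnΔKC arrays from -4.32 to -3.49 and normal arrays from -3.46 to -2.33. It was detected on 1 NcstnΔKC array, so the lower NcstnΔKC points are below detection.

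Markers of other cell types moved with the muscle level to differing extents. Beside the counts of calls given here, 27.9% of all 222 tested miRNAs were called lower and 14.9% higher. Of the 2 listed red blood cell miRNAs, miR-451a had r = -0.158 with the muscle level and differed by 0.53 (limma, adjusted p = 0.392). The other, miR-486a-5p, is also made in muscle. It had r = 0.942 and differed by -1.91 (limma, adjusted p = 0.0229). Their summed level had r = -0.015. Of the smooth muscle list, miR-145a-5p (-1.14, limma, adjusted p = 0.0450) and miR-143-3p (-0.52, 0.197) had r of 0.779 and 0.641. miR-145a-5p was detected on 1 NcstnΔKC array and 4 normal arrays, so it was tested only through normal skin, and 2 values were at the floor. The partner arms of both were detected on no array. The summed level of that list was 0.270 to 0.646 in NcstnΔKC skin and 0.431 to 0.782 in normal skin. The endothelial miR-126a-3p had r = 0.799 but differed by 0.15 (adjusted p = 0.392), the summed level of both its arms being 2.75 to 3.35 in NcstnΔKC skin and 2.38 to 3.08 in normal skin. Summed levels of fat miRNAs (5 listed, 3 tested, 2 called lower) were 1.53 to 1.93 in NcstnΔKC skin and 1.96 to 3.37 in normal skin. That sum had r = 0.206 with the muscle level, and its tested members 0.801 (miR-378a-3p), 0.268 (miR-365-3p) and -0.188 (miR-193b-3p). The 3 listed fibroblast miRNAs, miR-199a-3p, miR-199a-5p and miR-214-3p, ran the other way (3 of 3 higher, r = -0.705 for the summed level). Their summed levels were 8.75 to 13.6 in NcstnΔKC skin and 4.82 to 7.20 in normal skin. miR-199b-5p, which was not on that list, differed by -0.09 (limma, adjusted p = 0.715). White blood cell miRNAs (4 of 5 tested, 2 higher) summed to 2.78 to 8.89 in NcstnΔKC skin and 1.71 to 2.37 in normal skin, with r = -0.012. The muscle list's own summed level, 6.43 to 38.6 in NcstnΔKC skin and 17.6 to 84.6 in normal skin, spanned 6-fold and 4.80-fold within the groups. The keratinocyte list, a sum of members that differed in both directions between the groups, spanned 1.33-fold and 1.22-fold. Its r with the muscle level was -0.50. The part of these cell types in the muscle differences was not tested.

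To see what the muscle level does to the comparison of other miRNAs, the 217 miRNAs outside the set were fitted again with that level as a covariate. Without it 95 were called (43.8%), 62 lower and 33 higher. With it 48 were called (22.1%), 29 lower and 19 higher. Of these, 44 were called in both fits, 51 only without the covariate and 4 only with it, and 0 of the 95 turned sign. The 51 lost calls had a median size of 0.64 on the log2 scale with the covariate and 0.72 without it, and 15 of them were at least as large with it, so a lost call does not show that the difference went with the muscle level. Over all 217 the median difference was -0.22 in both fits. The fit with the covariate has 5 residual degrees of freedom against 6 and SEs that were 1.32 times as large at the median, so it is also less precise. The muscle level also differs on average between the groups, and what the level and the group each take up cannot be told apart in 8 arrays.

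Among the 5 miRNAs most like the muscle level, 3 had estimates nearer 0 with the covariate and 2 had estimates of the other sign. The direction of these shifts was fixed by the choice of the miRNAs. They were picked by r with the same level, which averaged 0.50 in NcstnΔKC skin and 2.12 in normal skin. With that gap, a positive r moves any estimate up and a negative r moves it down. miR-486a-5p was at -0.64 ± 0.29 with the covariate (limma, adjusted p = 0.139), against -1.91 without it. miR-128-3p was at -0.34 ± 0.18 (adjusted p = 0.199), against -0.90. miR-30a-3p was at -0.58 ± 0.17 (limma, adjusted p = 0.0468), against -1.22, so it remained a call at less than its first size. These 3 miRNAs were tested only through normal skin, where they were higher. miR-30e-5p was at 0.06 ± 0.16 (0.780), against -0.12, and miR-322-5p at 0.26 ± 0.21 (0.397), against -0.33, so both changed sign without a call in either fit. By contrast miR-214-3p stayed higher at 0.96 (0.0424) and miR-29b-3p at 0.79 (0.0305). Among the least alike, miR-7047-5p went past the threshold as lower with the covariate (-1.28, adjusted p = 0.0294), against -0.46 without it, as did miR-7686-5p (-1.37, 0.0294), against -0.54.

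**Figure D5:**
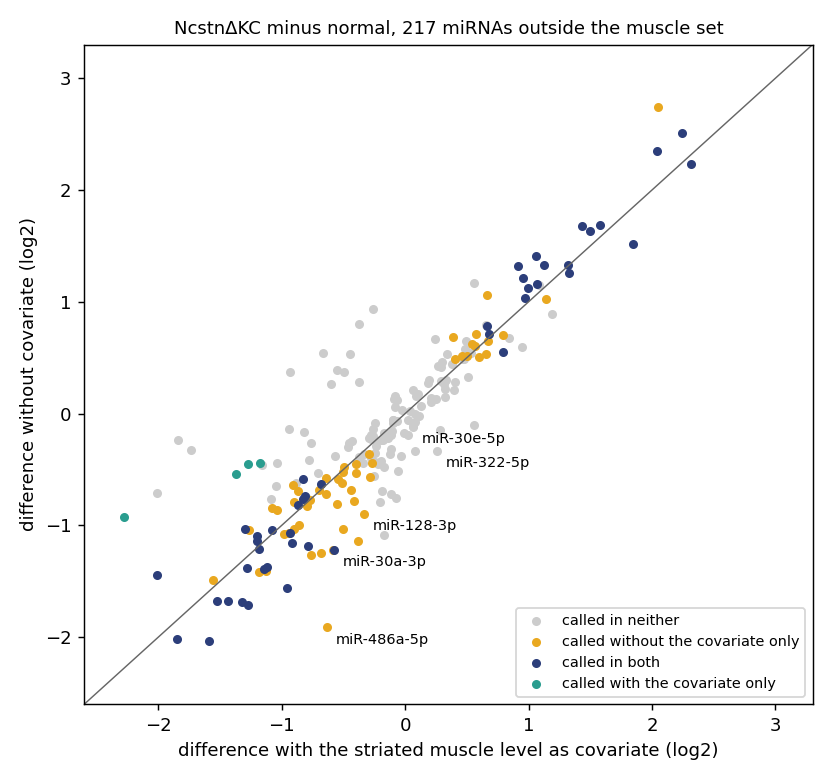
Log2 difference of NcstnΔKC minus normal with the muscle level as a covariate (x axis) and without it (y axis) for the 217 miRNAs outside the muscle set, coloured by the fit in which they passed an adjusted p of 0.05; the line marks equal values. miR-486a-5p sits at -0.64 and -1.91 and miR-30a-3p at -0.58 and -1.22, closer to 0 with the covariate. The upward direction of these shifts was fixed by their positive r.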

How the data were processed

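Each array held Cy3-labelled total RNA of 1 sample. Per the file headers, Agilent Feature Extraction 10.7.1.1 gave for each spot a raw intensity, a local background intensity, a processed intensity (background taken off along a surface fitted to the array), and a total intensity per miRNA, with no normalization between arrays and positions in mm9. The authors deposited a series matrix of log2 values with medians of 3.24 to 3.25 on every array, whose normalization and centring are not given in the sources used here.

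Control and outlier spots were left out (0 spots were saturated), and spots were averaged per probe (15 for each member's probe). A probe counted as detected with at least 50% of its spots well above background. Intensities were divided by each array's 75th percentile over the 301 probes detected on all 8 arrays, summed per miRNA, floored at 0.0318 (log2 -4.97) and put on the log2 scale. The 222 miRNAs detected on all 4 arrays of a group were fitted with limma 3.58.1 in R 4.3.3 (group alone, prior degrees of freedom 2.46, tested on simulated data), with Benjamini-Hochberg adjustment over the 222. Calls need an adjusted p under 0.05, and each difference is NcstnΔKC minus normal. The number of arrays limits the precision. Named miRNAs are the members, a list of related muscle miRNAs, and the 5 most and 3 least like the muscle level. Members and lists were chosen with earlier results of these data known. Deviations from the group means correlated over tested miRNAs at -0.439, 0.201, -0.257 and -0.234 for equal replicate numbers 1 to 4. Unequal numbers gave -0.441 to 0.585, so these values show no pairing by replicate number but cannot exclude one. Alternatives are in the closing section.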

Additional observations from a re-analysis of the deposited data

Results flagged for a closer look

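One value was far from the rest of its group. Within the 4 normal arrays the log2 ratio of miR-133b-3p over miR-133a-3p was 0.76, 0.75, 0.81 and 0.76 in normal 1 to 4, and the gap of normal 3 to its neighbour was 0.836 of the group's range. All 4 values lie between 0.75 and 0.81, and chance marks about 1 group in 20. NcstnΔKC arrays had ratios of 0.79 to 0.84.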

How the results depend on the processing

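All 5 muscle miRNAs kept a negative difference under every alternative, miR-1a-3p between -2.40 and -0.96, miR-133a-5p between -2.35 and -0.78 and miR-206-3p between -1.87 and -0.16, whereas the calls depended on the setting. The miR-1a-3p call held in 10 of 27 alternatives, with limma adjusted p from 0.000691 to 0.439. It was lost with the percentile over all probes (-0.96, adjusted p = 0.439), quantile (-1.60), cyclic loess (-1.74), normexp (-1.81), the scanner software's totals (-1.95), the series matrix (-1.80) and, at -1.83, with no filter on dim miRNAs (adjusted p = 0.374), only miRNAs detected on all 8 arrays (0.0519), trended robust eBayes (0.0506), the replicate number as a block (0.132) and the exact permutation test (0.0571). In each of these limma fits the count of members called was 0 (miR-133a-5p has no value with only miRNAs detected on all 8 arrays); it was 2 with the mean of log2 values over probes, where miR-133a-3p was called at -1.76. It was 4 without scaling (miR-133a-3p -1.99, miR-133b-3p -1.95, miR-133a-5p -2.03) and with spike-ins (-2.03, -1.99 and -2.05). It was 5 with array quality weights (-2.29, -2.28, -2.35 and, for miR-206-3p, -1.87), whose fit stopped before it converged. Leaving out 1 array at a time gave 0 to 4 calls, with differences of -2.32 to -1.43 for miR-1a-3p, -2.21 to -1.34 for miR-133a-3p, -2.18 to -1.31 for miR-133b-3p, -2.35 to -1.33 for miR-133a-5p and -1.66 to -0.46 for miR-206-3p. Over all tested miRNAs the 95 calls became 12 with the percentile over all probes, 19 with no filter, 61 with only miRNAs detected on all arrays, 149 with weights, 48 with the muscle level as covariate, 71 with the replicate block, and 59 to 94 with 1 array left out. Lower and higher calls, 62 and 33 as reported, were 36 and 39 with cyclic loess, 91 and 18 with spike-ins, 28 and 36 with normexp and 36 and 36 in the series matrix. The ratio of miR-133b-3p over miR-133a-3p was -0.0047 with normexp, and that of miR-133a-5p over miR-133a-3p was 0.88 with normexp, 0.77 with the software's totals, 0.075 in the series matrix, 0.043 with the brightest probe and 0.0057 without NcstnΔKC 2 (-0.20 to 0.0057 with 1 array left out). The 5 miRNAs most like the muscle level shared 2 with those under the percentile over all probes, and 3 under quantile and in the series matrix. The cause of these changes was not tested. The replicate number is the slide column, and the deviations showed no pairing by it but cannot exclude one. The block changed no other call among the members or ratios. Values of miR-133a-5p, miR-486a-5p, miR-128-3p, miR-30a-3p and miR-145a-5p near background limit what their lowest arrays show. All of them were tested only through normal skin, where they were higher.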
